A study of Mus musculus with 2 samples.

Results

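The genes of oxidative phosphorylation were followed in MIN6 cells, a line of mouse insulinoma cells that secrete insulin, after transfection with a glucocorticoid receptor (GR) vector. They were chosen by name, as the protein-coding rows of the all-gene table whose symbol starts with mt-, Nduf, Uqcr or Atp5, or with Cox and a digit, or is Sdha, Sdhb, Sdhc, Sdhd or Cycs. The choice found 115 of 21542 genes, with 102 of them encoded in the nucleus and 13 in the mitochondrial genome. By role, 77 nuclear members were classed as structural subunits or cytochrome c. A further 17 were classed as assembly factors of complexes I and IV, and 8 as tissue isoforms or relatives of complex IV subunits. Names outside the choice, such as Cyc1 of complex III, are given below as other genes of the pathway.

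RNA sequencing was done on 1 library of cells given the GR expression vector and 1 library of cells given the control vector. Both groups carried a plasmid, 4 ug with 4.8 ul of Lipofectamine in a 3.5 cm dish, and both grew in 25 mM glucose and 15% serum. The labels give the strain C57BL/6 for both. They do not state which GR cDNA was used, how long after transfection RNA was taken, or whether a glucocorticoid was added. With 1 library per group, no difference below has a replicate check, and every interval and library test reflects counting error alone. Such a test sets 1 library against the other and says nothing of how cultures with the same vector would vary.

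Oxidative phosphorylation joins the respiratory chain to ATP synthesis in the inner mitochondrial membrane. Complex I takes electrons from NADH and complex II from succinate. Complex III passes them to cytochrome c and complex IV to oxygen, and the proton gradient built by complexes I, III and IV drives ATP synthase. In the beta cell this pathway couples glucose breakdown to insulin release, because the ATP it makes closes the KATP channel. Complex II is built from nuclear genes alone, whereas the other complexes also need subunits from the mitochondrial genome, which is read from both strands as long precursors that are cut into single messages.

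The GR library held 18525668 gene reads and the control library 18537326. Nr3c1, the receptor's own gene, had 5202 reads with the GR vector and 2645 with the control vector, a fold of 1.97 (95% interval 1.88 to 2.07), and the counts do not separate vector transcripts from the cells' own. The 13 beta cell markers were all measured, from Ins2 with 373033 reads in the GR library and 407986 in the control library down to Nkx2-2 with 2335 and 2364. Summed, they had 897554 reads with the GR vector and 946490 with the control vector. In the library test 4 (Ins2, Ins1, Iapp and Chga) were lower and 1 (Pcsk1) was higher. With the GC trend described below removed, the log2 fold change of Chga went from -0.037 to 0.014. That of Pcsk1 went from 0.12 to 0.051, and Ins2, Ins1 and Iapp stayed lower, at -0.080, -0.080 and -0.11. Of the 7 alpha, delta and PP cell markers 4 had a row in the table, led by Ttr with 5164 reads in the GR library and 5187 in the control library and Gcg with 623 and 537, and of the 8 exocrine and duct markers 3 had a row, of which Krt7 was lower (2166 and 2429). Of the 6 fibroblast and endothelial and the 5 immune markers, 4 in each list had a row, with sums of 109 and 216 in the GR library and 90 and 216 in the control library. The part of these markers in the results below was not tested. In a bulk sample, fewer cells of a type and less RNA per cell cannot be told apart.

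Messages of oxidative phosphorylation were abundant and kept nearly the same order of levels in both libraries. All 115 members together took 2.70% of gene reads with the GR vector (exact Clopper-Pearson 95% interval 2.69 to 2.71) and 2.66% with the control vector (2.65 to 2.67). The 13 mitochondrially encoded genes took 1.73% in the GR library (1.72 to 1.73) and 1.67% in the control library (1.66 to 1.67). The 102 nuclear members took 0.973% in the GR library (0.968 to 0.977) and 0.990% in the control library (0.986 to 0.995). Reads of mitochondrial members were therefore 1.78 times those of nuclear members with the GR vector and 1.68 times with the control vector. Of the mitochondrial reads, 2563 in the GR library and 2055 in the control library came from 5 genes with mostly shared sequence, described below. The part of reads with several matches in these shares was not tested. A filter that asked for a mean of 50 or more reads kept 107 members, and the same 107 had 100 or more. Over these, the ranks of the levels in the 2 libraries correlated with a Spearman's rho of 0.994, a description across genes that share both libraries.

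Levels are compared between genes as RPKM, the recovered reads scaled by transcript length in kilobases and by the size of the library. The nuclear ATP synthase genes had the highest median of the nuclear groups with several members, 176.8 RPKM in the GR library and 175.4 in the control library. Atp5b, the catalytic beta subunit, led them at 664 RPKM in the GR library and 678 in the control library. Atp5s was the lowest of those classed there, at 7.90 RPKM in the GR library and 7.37 in the control library. The 11 standard subunits of complex IV had medians of 117 and 126 RPKM in the GR and control libraries, led by Cox8a and Cox6a1, and the 8 nuclear genes of complex III had 107 and 106. The 4 genes of complex II had 87.4 RPKM in the GR library and 88.0 in the control library. In complex I, the core subunits, which hold the redox centres, had medians of 72.8 RPKM with the GR vector and 70.2 with the control vector, and the accessory subunits 58.0 and 58.8. The assembly factors, which are not part of the finished enzymes, were lower, at 12.1 and 12.0 RPKM for complex I and 8.69 and 8.69 for complex IV. These levels depend on the transcript length used. By the longest principal transcript, the core subunits had medians of 58.1 RPKM with the GR vector and 65.6 with the control vector. The nuclear ATP synthase genes then had 149 and 150, and the accessory subunit Ndufb2 fell to 4.48 and 4.91.

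**Figure D1:**
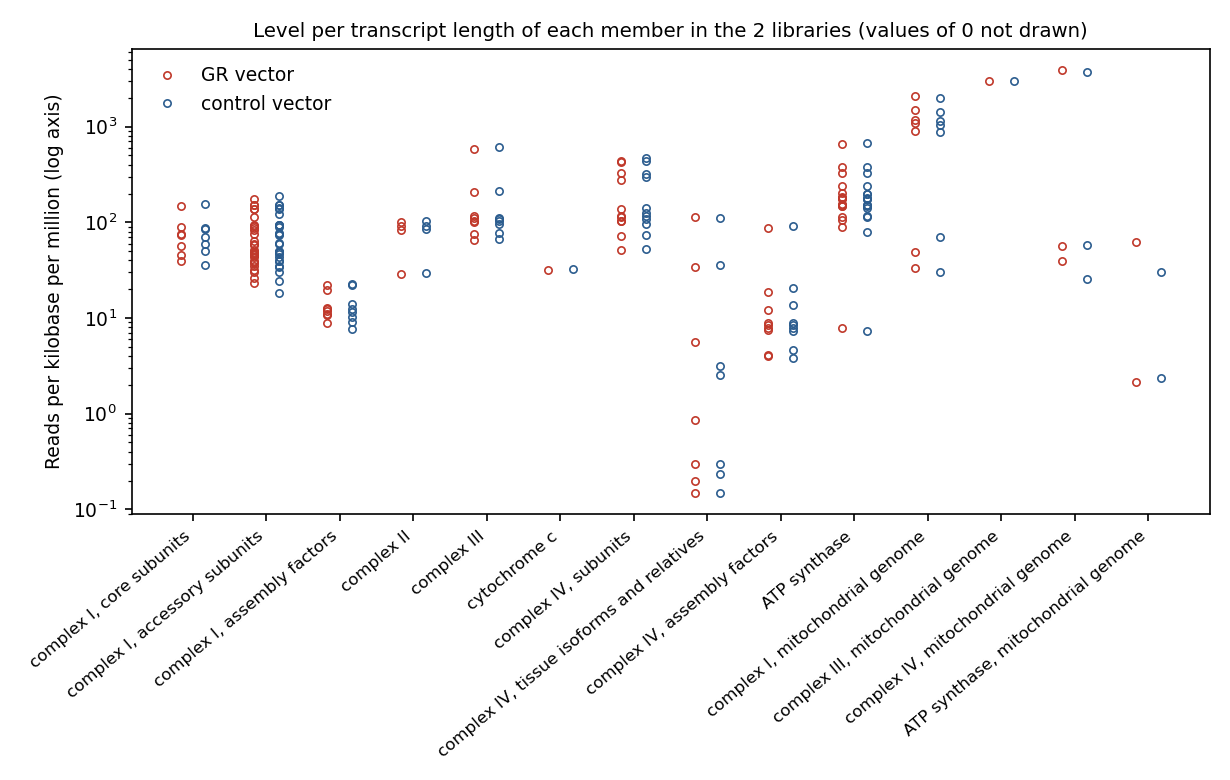
Level of each member in RPKM, reads scaled by transcript length and library size (vertical log axis), by complex, role and genome (horizontal axis), with 1 circle per gene and library, red for the GR vector and blue for the control vector. The assembly factors lie below the structural subunits of the same complex except Cox14 of complex IV and, in the control library, Ndufaf2 and Ndufaf3, which lie above Ndufs4, and the mitochondrially encoded genes split into 7 genes at 877 RPKM or higher and 6 at 69.5 or lower.

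Isoform choice within complex IV was clear in both libraries. Several of its subunits exist in a general form and in a form of heart and muscle, lung or testis. Cox4i1, the general form of subunit 4, had 3813 reads with the GR vector and 4146 with the control vector, against 2 and 0 for Cox4i2, the lung form that low oxygen induces. Cox6b1 had 1295 reads in the GR library and 1335 in the control library, and its testis form Cox6b2 had 0 and 2. Cox7b2 had 2 reads in the GR library and 3 in the control library, and Cox8b, the heart and muscle form of subunit 8, had 2 and 1. A count of 0 allows up to 3 reads by counting error, so no fold is given for Cox4i2, Cox6b2, Cox7b2 or Cox8b, each at or under that floor in both libraries.

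The heart and muscle form of subunit 6A was the exception among these families. Cox6a2 had 427 reads with the GR vector and 450 with the control vector, which is 7.34% and 7.49% of the summed RPKM of Cox6a1 and Cox6a2. Subunit 7A was split between Cox7a2, the liver form, and Cox7a2l, a relative known for its part in joining complexes III and IV into supercomplexes. Cox7a2 made up 49.3% of the family's RPKM in the GR library and 52.3% in the control library, and Cox7a2l 48.3% and 46.4%. The heart and muscle form Cox7a1 had 41 reads with the GR vector and 23 with the control vector, a fold of 1.79 (1.05 to 3.12) that did not pass the library test (adjusted p of 0.271, exact binomial test). The c ring of ATP synthase is encoded by 3 genes for the same mature protein. Atp5g3 had 3137 reads in the GR library and 3182 in the control library, Atp5g1 had 1964 and 2180, and Atp5g2 had 1262 and 1257. Their RPKM order is uncertain, since Atp5g1 made up 31.2% of the family in the GR library by its short transcript and 6.43% by its longest.

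The mitochondrially encoded genes fell into separate groups by level. The 7 highest were mt-Co1, mt-Cytb, mt-Nd1, mt-Nd5, mt-Nd2, mt-Nd6 and mt-Nd4. mt-Co1, the catalytic subunit of complex IV, had 3877 RPKM in the GR library and 3685 in the control library. mt-Cytb, the cytochrome b of complex III, had 3000 RPKM in the GR library and 2968 in the control library. mt-Nd4, the lowest of this group and a proton-pumping subunit of complex I, had 912 and 877. mt-Nd6 is encoded on the opposite strand and overlaps the end of mt-Nd5 by 14 bases. Strand handling is not stated, so reads of the 2 genes in that stretch cannot be told apart. Over the rest of mt-Nd6, reads of the precursor from the other strand cannot be told from its own message either. The level of mt-Nd6 is therefore uncertain along its whole length.

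The other 6 mitochondrial members stood far below. mt-Co2, the subunit of complex IV that receives electrons from cytochrome c, had 56.6 RPKM in the GR library and 57.3 in the control library. mt-Atp6, the proton channel subunit of ATP synthase, had 62.5 with the GR vector and 30.1 with the control vector. mt-Co3 had 39.6 and 25.4 RPKM in the GR and control libraries, mt-Nd4l had 49.3 and 69.5, and mt-Nd3 had 33.1 and 30.0. mt-Atp8, a small subunit of ATP synthase, had 8 reads with the GR vector and 9 with the control vector (2.12 and 2.38 RPKM). These are consecutive protein genes along the mitochondrial genome, mt-Co2, mt-Atp8, mt-Atp6, mt-Co3, mt-Nd3 and mt-Nd4l, and they lie between mt-Co1 and mt-Nd4, which are high.

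Low level went with shared sequence. The share of a gene's 31-mers (runs of 31 bases) found also in a different annotated gene was 100% for mt-Co2, 99.9% for mt-Co3, 99.5% for mt-Atp6, 98.9% for mt-Nd4l and 98.1% for mt-Nd3. It was 63.9% for mt-Co1 and 62.8% for mt-Nd4, and between 0% and 16.8% for mt-Nd1, mt-Nd2, mt-Nd5, mt-Nd6 and mt-Cytb. Reads that match more than 1 place can be dropped or split by the counting, and the counting rule is not given in the sources used here. The part of multiple matches in these levels was not tested. mt-Atp8 is low with a share of 7.47%.

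**Figure D2:**
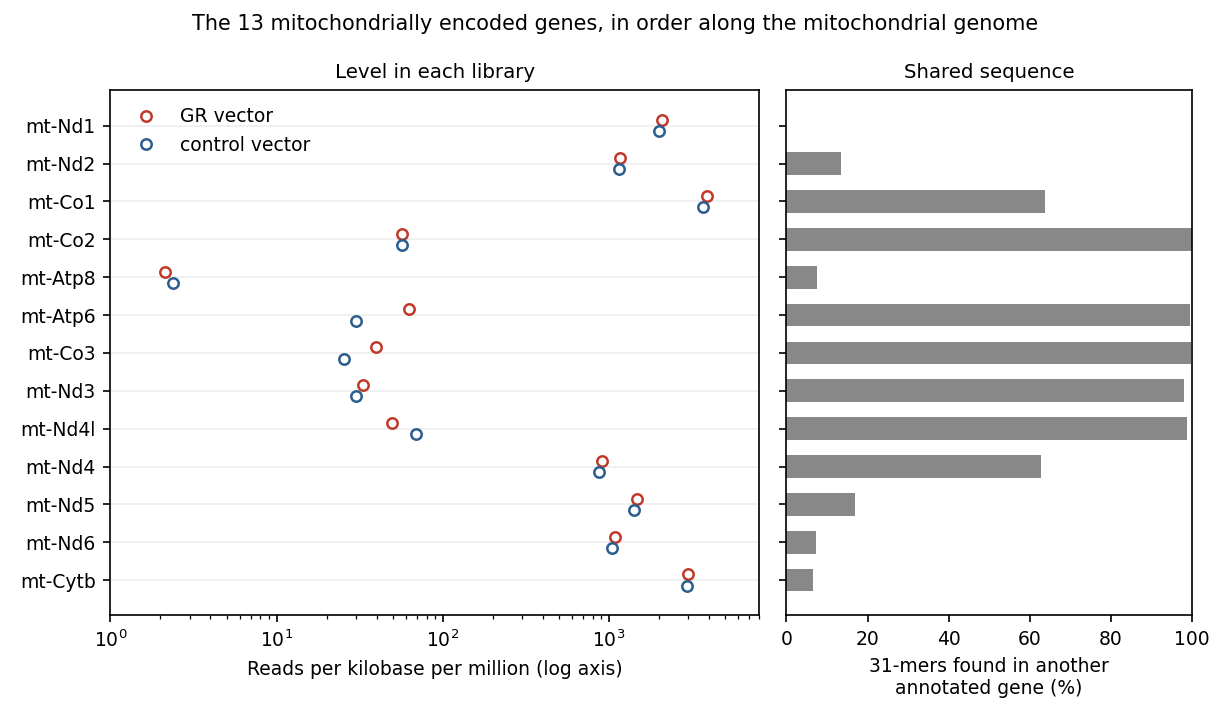
Level of the 13 mitochondrially encoded genes in order along the mitochondrial genome (rows), as RPKM on a log axis (left; red, GR vector; blue, control vector) and the percent of their 31-mers found in another annotated gene (right, bars). The 5 genes with over 98% shared lie between 25.4 and 69.5 RPKM and mt-Atp8 at 2.12 and 2.38, while the other 7 lie at 877 or above.

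The matching sequence lies mostly on chromosome 1, where 7 unprocessed pseudogenes follow each other on the minus strand between 24611535 and 24616197 (4663 bases, coordinates as in the deposited table, which match GENCODE M21 on GRCm38). Each is a nuclear copy of a mitochondrial gene. The copies of mt-Atp6 (Gm10925, 678 bases), mt-Co3 (Gm28437, 783), mt-Nd4l (Gm10222, 294), mt-Co2 (Gm28661, 681) and mt-Nd4 (Gm28439, 876) had 0 differences from the mitochondrial gene, and the copy of mt-Nd3 (Gm28438, 345 bases) had 1. A more diverged copy of mt-Co1 on chromosome 2, Gm13340, had 37 differences over 1545 bases (97.6% identity). The first 120 bases of mt-Atp6 and mt-Nd4l and of their copies are shown because they are among the well-read members that differed most between the libraries. Those of mt-Co1 with Gm13340 show a copy that differs. Transcripts are those of GENCODE M21, written 5′ to 3′ on the strand of the gene, and capitals mark the 3 bases that differ between mt-Co1 and Gm13340.
mt-Atp6, chrMT:7927-8046, plus strand: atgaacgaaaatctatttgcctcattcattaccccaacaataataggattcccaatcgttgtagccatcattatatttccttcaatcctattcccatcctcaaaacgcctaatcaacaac
Gm10925, chr1:24614532-24614651, minus strand: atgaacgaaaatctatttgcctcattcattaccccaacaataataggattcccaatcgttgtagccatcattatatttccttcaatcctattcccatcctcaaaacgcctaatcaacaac
mt-Nd4l, chrMT:9877-9996, plus strand: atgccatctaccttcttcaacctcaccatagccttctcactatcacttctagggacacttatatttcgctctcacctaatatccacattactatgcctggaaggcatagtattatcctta
Gm10222, chr1:24612581-24612700, minus strand: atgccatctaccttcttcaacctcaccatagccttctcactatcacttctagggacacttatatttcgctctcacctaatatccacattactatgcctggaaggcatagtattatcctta
mt-Co1, chrMT:5328-5447, plus strand: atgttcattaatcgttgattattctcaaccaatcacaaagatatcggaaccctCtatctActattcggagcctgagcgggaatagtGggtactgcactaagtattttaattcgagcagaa
Gm13340, chr2:22589528-22589647, minus strand: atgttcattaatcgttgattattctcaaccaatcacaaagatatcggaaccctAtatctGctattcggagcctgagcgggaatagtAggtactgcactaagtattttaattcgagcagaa

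mt-Atp8 is shown whole because it is the lowest mitochondrial member although few of its 31-mers are shared. Its last 43 bases, in capitals, are also the first 43 of mt-Atp6, the longest overlap on the mitochondrial genome. The other overlaps there were 7 bases between mt-Nd4l and mt-Nd4, 1 base between mt-Atp6 and mt-Co3, and the 14 bases of mt-Nd5 and mt-Nd6. On chromosome 1, a stretch of 233 bases with no annotated gene lies between the copies of mt-Atp6 and mt-Co2, which is where mt-Atp8 stands in the mitochondrial order. A 31-mer share counts annotated genes only, so the 7.47% of mt-Atp8 says nothing about that stretch.
mt-Atp8, chrMT:7766-7969, plus strand: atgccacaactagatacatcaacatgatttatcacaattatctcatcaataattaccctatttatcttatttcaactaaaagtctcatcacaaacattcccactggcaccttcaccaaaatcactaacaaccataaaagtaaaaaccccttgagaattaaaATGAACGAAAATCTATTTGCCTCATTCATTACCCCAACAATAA

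Reads of the copies were compared with those of the mitochondrial genes. Gm10925 had 410 reads with the GR vector and 318 with the control vector, a fold of 1.29 (1.11 to 1.50), and was higher in the library test. Gm10222 had 93 and 54 reads, a fold of 1.73 (1.22 to 2.46), and was also higher, whereas mt-Nd4l itself was lower. Summed with its copy, mt-Atp6 had 1198 reads in the GR library and 699 in the control library (fold 1.72, 1.56 to 1.89), mt-Co3 had 853 and 627 (1.36, 1.23 to 1.51) and mt-Nd4l had 364 and 437 (0.835, 0.725 to 0.962). These 3 sums kept the direction of the gene itself, and they were chosen after the values were seen. Each sum holds the gene's own reads, which outnumber those of its copy in both libraries, so it is no separate check. The copies of mt-Co3, mt-Co2, mt-Nd3 and mt-Nd4 did not pass the library test. Gm28437 had 278 reads with the GR vector and 257 with the control vector, Gm28661 had 575 reads in the GR library and 559 in the control library, Gm28438 had 32 and 30, and Gm28439 had 152 and 146. Gm29216, which matches 483 bases of mt-Co1 with 1 difference, had 241 reads in the GR library and 143 in the control library. It was thus also more read with the GR vector, and its fold and library test are not given here.

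The comparison of the GR vector with the control vector asks how a raised level of the receptor bears on these messages. Most members differed little: 101 of the 107 with a mean of 100 reads or more (94.4%) were within 1.2-fold, against 95.0% of all 11070 genes at that depth. At least 1.2-fold higher in the GR library were 4 members (mt-Atp6, mt-Co3, Ndufs4 and Uqcrb), where 2.68% of all genes at that depth were, and at least 1.2-fold lower were 2 (mt-Nd4l and Ndufa3), where 2.36% were. The library test, an exact two-sided binomial test per gene at an adjusted p of 0.05 (Benjamini-Hochberg, all 21542 genes), called 8 of 115 members higher, against 1.58% of all genes, and 6 lower, against 1.14%. This test calls small folds of deeply read genes, and 107 of 115 members have a mean of 100 reads or more, against 11070 of all 21542 genes. By the adjusted p of the authors' deposited table, 0.0186% of all genes passed 0.05, which is 4 genes with no member among them. The lowest adjusted p of a member in the authors' deposited table was 1, and 2 members, Ndufa4l2 and mt-Atp6, had an unadjusted p under 0.05 there. Those p-values equal an exact test with a preset spread, which was not measured between replicates.

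**Figure D3:**
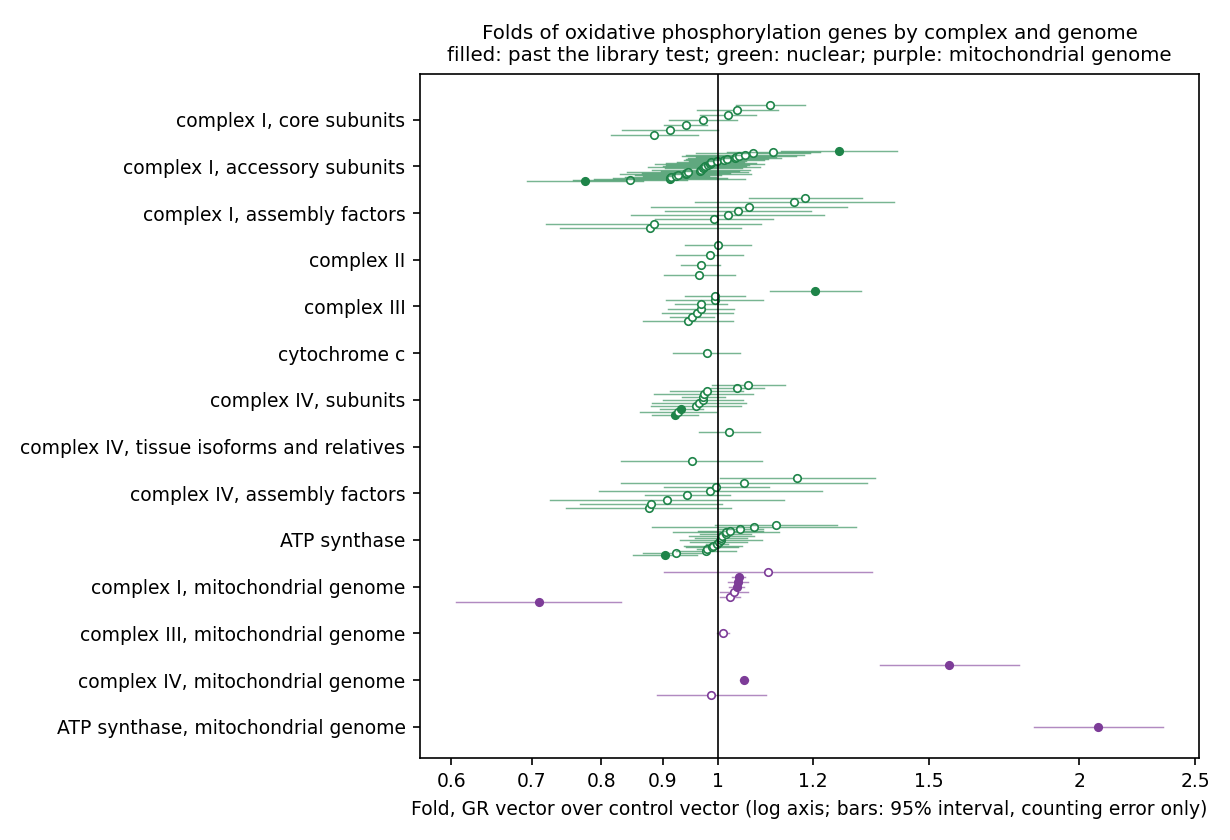
Fold, GR vector over control vector (horizontal log axis), with its 95% interval for counting error, for the 107 members with a mean of 50 reads or more, by complex, role and genome; filled circles passed the library test, green is nuclear and purple mitochondrial. Most circles lie between 0.9 and 1.1, and mt-Atp6, mt-Co3 and mt-Nd4l stand apart.

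The largest folds among well-read members were in the mitochondrial genome, on genes with nearly all sequence shared. mt-Atp6 (ENSMUSG00000064357) had 788 reads with the GR vector and 381 with the control vector, a fold of 2.07 (1.83 to 2.35). mt-Co3 (ENSMUSG00000064358), a core subunit of complex IV, had 575 and 370 reads, a fold of 1.56 (1.37 to 1.78). mt-Nd4l (ENSMUSG00000065947), a membrane subunit of complex I, had 271 reads in the GR library and 383 in the control library, a fold of 0.710 (0.605 to 0.831). Their adjusted p in the exact binomial test was 4.73e-30, 1.07e-08 and 0.00185. These genes lie on 1 strand, and mt-Nd3 separates mt-Co3 from mt-Nd4l. mt-Atp6 and mt-Co3 were higher and mt-Nd4l lower. mt-Co2 and mt-Nd3, as much shared, did not pass, with 716 and 213 reads in the GR library and 727 and 194 in the control library. Counts of all 5 are uncertain for the reason given with their sequences.

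The well-read mitochondrial genes were slightly higher in the GR library. mt-Co1 had 110840 reads with the GR vector and 105660 with the control vector, a fold of 1.05 (1.04 to 1.06). mt-Nd1, which has 0% of its 31-mers shared, had 36882 and 35660 (1.04, 1.02 to 1.05), and mt-Nd5 had 50067 and 48210 (1.04, 1.03 to 1.05). mt-Nd4 had 23253 reads in the GR library and 22421 in the control library (1.04, 1.02 to 1.06). These 4 passed the library test. mt-Cytb had 63509 reads with the GR vector and 63016 with the control vector, mt-Nd2 22541 and 22066, and mt-Nd6 10395 and 10101, and these 3 did not pass. The 2 ribosomal RNAs of the mitochondrial genome, which are not members, were also higher, with 3696 and 3285 reads for mt-Rnr1 (1.13, 1.08 to 1.18) and 4439 and 3900 for mt-Rnr2 (1.14, 1.09 to 1.19). Both had far fewer reads than mt-Co1, and the share of their 31-mers found in other genes was not measured. The part of library preparation in these 2 counts was not tested. Summed over the 13 members, the fold was 1.04 (1.03 to 1.04).

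GC content of the transcripts moved with these small differences. Across all 12109 genes at a mean of 50 or more reads with a known GC content, log2 fold change and GC content had a Spearman's rho of -0.35, and across the 95 nuclear members -0.28, both descriptions across genes that share the 2 libraries. The mitochondrial members have a median GC content of 37.4%, against 49.9% for nuclear members and 50.0% for all genes. When the trend over all genes was removed, the fold of mt-Co1 became 1.00, that of mt-Nd5 0.984, that of mt-Nd1 0.982 and that of mt-Nd4 0.979, and none of these 4 was called. mt-Nd2 and mt-Cytb, at 0.965 and 0.960, were then called lower, whereas removal of the trend with transcript length called the same genes higher, at 1.04 and 1.02. mt-Atp6, mt-Co3 and mt-Nd4l kept their calls, at 1.95, 1.48 and 0.678. Of the 7 well-read mitochondrial messages, 6 thus lay below a fold of 1 with the GC trend removed, and mt-Co1 remained just above it. The ribosomal RNAs also stayed above, with log2 fold changes of 0.09 for mt-Rnr1 and 0.10 for mt-Rnr2. The trend rests on few genes there, with 45 in the bin centred at 36% GC.

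**Figure D4:**
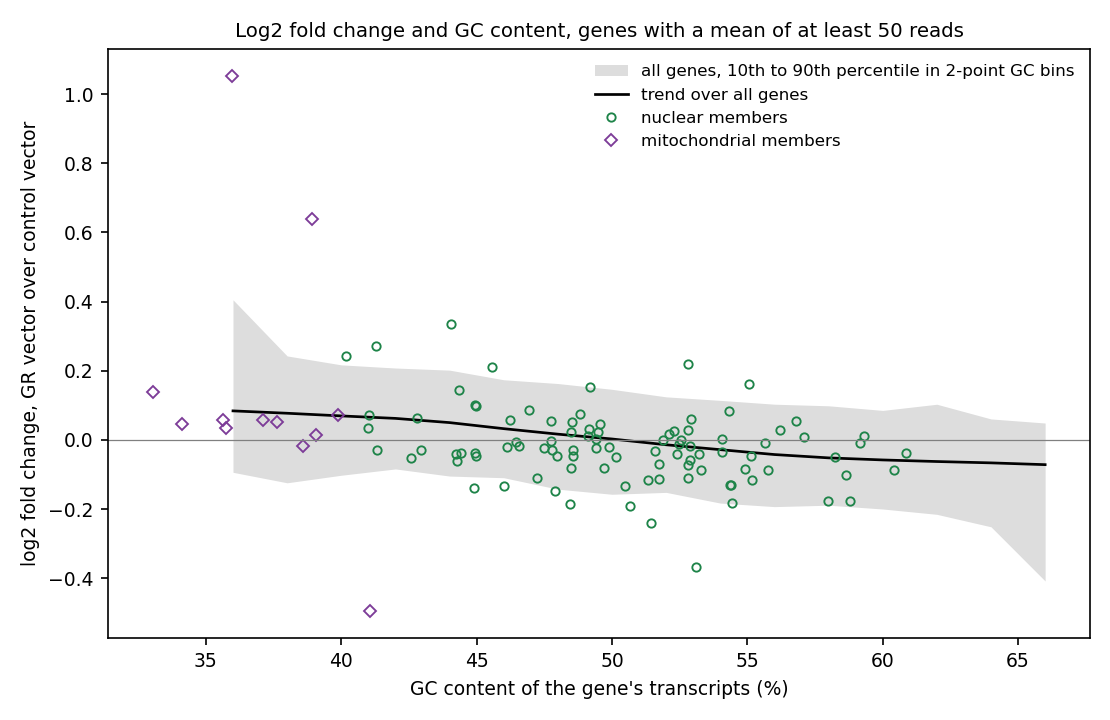
Log2 fold change, GR vector over control vector (vertical axis), against transcript GC content in percent (horizontal axis) for members at a mean of 50 or more reads (green circles, nuclear; purple diamonds, mitochondrial), with the trend over all genes (line) and their 10th to 90th percentile in GC bins (grey band). Most mitochondrial members lie at the low-GC end close to the trend, and mt-Atp6, mt-Co3 and mt-Nd4l lie far from it.

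In complex I, 2 of 44 nuclear members passed the library test, in opposite directions. Ndufs4 (ENSMUSG00000021764, chromosome 13, 114287795 to 114388258), an accessory subunit of the peripheral arm whose loss causes Leigh syndrome in humans, had 730 reads with the GR vector and 580 with the control vector. Its fold was 1.26 (1.13 to 1.41), and 1.22 with the GC trend removed, still called. Ndufa3 (ENSMUSG00000035674, chromosome 7, 3617373 to 3620327), an accessory subunit of the membrane arm, had 566 and 732 reads, a fold of 0.775 (0.694 to 0.867). Both share 0% of their 31-mers with another gene. Ndufa12, another accessory subunit, had 614 reads in the GR library and 728 in the control library (0.846, 0.758 to 0.943) and did not pass. Of the 29 accessory subunits, 20 lay below a log2 fold change of 0 and 9 above, with a median of -0.04. The median was 0.004 for all 12119 genes at a mean of 50 or more reads, of which 49.0% lay below 0. With the GC trend removed, 17 of the 29 accessory subunits lay below 0, with a median of -0.02. Their median was also -0.02 with the length trend removed. Ndufb11 and Ndufa2, the most read accessory subunits, had 2579 and 1847 reads with the GR vector and 2587 and 2005 with the control vector.

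The core subunits of complex I had folds between 0.886 and 1.11, and 0 of 7 were called. Ndufs1, the largest subunit and a carrier of iron-sulfur clusters, was the highest, with 1884 reads in the GR library and 1708 in the control library (1.11, 1.04 to 1.18). Ndufs7, which holds the last cluster before ubiquinone, was the lowest, with 1057 and 1197 reads (0.886, 0.815 to 0.963). Ndufv1, which binds NADH, had 2758 reads with the GR vector and 2710 with the control vector. Among the 8 assembly factors 0 were called, and their median log2 fold change was 0.04. Ndufaf4 was the highest, at 730 reads in the GR library and 619 in the control library (1.18, 1.06 to 1.32), and Ndufaf2 the lowest, at 249 and 284 (0.879, 0.739 to 1.05), with 65.1% of its 31-mers shared. Ndufaf3, second in reads, had 611 and 617.

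Complexes II and III were nearly level. The 4 genes of succinate dehydrogenase had folds from 0.966 for Sdhc, a membrane anchor, to 1.00 for Sdhb, the iron-sulfur subunit. Sdha, the flavoprotein, had 5381 reads with the GR vector and 5575 with the control vector, and Sdhd, a second anchor, had 1909 and 1944. None of the 4 was called. In complex III, 7 of 8 nuclear genes lay below 0, with a median log2 fold change of -0.05, and 1 was called. With the GC trend removed, 6 of 8 lay below 0 with a median of -0.04, and with the length trend removed the median was -0.03. Uqcrb (chromosome 13, 66900617 to 66905378), a small subunit near the ubiquinone site, had 1150 reads in the GR library and 956 in the control library, a fold of 1.21 (1.11 to 1.32). It shares 34.8% of its 31-mers with other genes, most with the processed pseudogene Gm16089 (15 reads with the GR vector and 12 with the control vector), and at a fold of 1.15 it was not called once the GC trend was removed. Uqcrq and Uqcrc1, the most read, had 4367 and 3052 reads in the GR library and 4600 and 3158 in the control library, and Uqcrh was lowest at a fold of 0.945 (0.868 to 1.03). Cycs, cytochrome c itself, had 1843 and 1887 reads, a fold of 0.980 (0.918 to 1.04).

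Complex IV held 3 of the nuclear calls, all lower. Ndufa4l2 (chromosome 10, 127514967 to 127517154), a relative of the subunit Ndufa4 that low oxygen induces, had 15 reads with the GR vector and 44 with the control vector, a fold of 0.342 (0.177 to 0.626, adjusted p of 0.0147 in the exact binomial test). It was sparsely read, whereas Ndufa4 had 1573 and 1610 reads. Cox4i1 (chromosome 8), which takes part in the control of the enzyme by ATP, had 3813 reads in the GR library and 4146 in the control library, a fold of 0.922 (0.882 to 0.964). Cox8a (chromosome 19) had 4435 and 4769 reads, a fold of 0.933 (0.895 to 0.972). Cox4i1 and Cox8a are GC-rich, at 55.2% and 58.6%, and were not called once the GC trend was removed, at folds of 0.946 and 0.968. Nor were they called with the length trend removed, at 0.935 and 0.945. Of the 11 standard subunits 9 lay below 0, with a median log2 fold change of -0.04, which was -0.08 with the GC trend removed and -0.02 with the length trend removed. Cox6a1, the most read beside Cox8a, had 4528 reads with the GR vector and 4666 with the control vector, and Cox5b was highest at 1.06 (0.989 to 1.14).

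The assembly factors of complex IV showed 0 calls among 9. Cox19, a copper chaperone, was highest, with 387 reads in the GR library and 333 in the control library (1.17, 1.00 to 1.35), and Cox18, which inserts mt-Co2 into the membrane, was lowest, with 298 and 341 (0.876, 0.748 to 1.03). Cox14 and Cox15 were the most read, at 1166 and 788 reads with the GR vector and 1239 and 792 with the control vector. Cox20 had 36 reads in the GR library and 40 in the control library with 89.2% of its 31-mers shared.

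The nuclear genes of ATP synthase lay on both sides of 0. Of 17 genes 10 lay above and 7 below, with a median log2 fold change of 0.01, and of 0.03 with the length trend removed. Atp5b and Atp5a1, the catalytic beta and alpha subunits, had 23551 and 17204 reads with the GR vector and 24116 and 17257 with the control vector. Neither passed the library test, but Atp5b was called lower once the GC trend was removed, at a fold of 0.967. Atp5k was highest, with 612 and 549 reads (1.12, 0.995 to 1.26). Atp5g1 (chromosome 11), a gene of the c ring, was the lowest and was called, with 1964 reads in the GR library and 2180 in the control library, a fold of 0.904 (0.850 to 0.961, adjusted p of 0.0440 in the exact binomial test). It was not called once the length trend was removed, at a fold of 0.916. The other c ring genes had folds of 0.989 for Atp5g3 (0.941 to 1.04) and 1.01 for Atp5g2 (0.930 to 1.09).

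Set against each other, the genomes differed by little. The 95 nuclear members at a mean of 50 or more reads had a median log2 fold change of -0.03, with 34 above and 61 below 0, and their summed reads had a fold of 0.984 (0.978 to 0.991). The 12 mitochondrial members at that depth had a median of 0.05, with 10 above and 2 below. The difference, mitochondrial minus nuclear, was 0.08, and it was -0.0059 with the GC trend removed. The nuclear median kept its sign then, at -0.02 with 55 of 95 below 0, while the mitochondrial one became -0.03 with 8 of 12 below 0. With the length trend removed instead, the nuclear median was -0.01 and the mitochondrial one 0.07. With neither trend removed, 49.0% of all genes at that depth lay below 0. No test was made of these medians, and 1 library per group gives no spread to read them against.

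Other genes of the pathway, from lists of names outside the choice, showed 1 call. Gabpa, a subunit of the ETS factor that activates many respiratory genes, had 1954 reads with the GR vector and 1753 with the control vector, a fold of 1.12 (1.05 to 1.19), and was higher. Its log2 fold change of 0.16 became 0.098 with the GC trend removed. The other 9 transcription regulators did not pass, among them Yy1 with 4130 and 3970 reads, Gabpb2 with 3219 and 3313, Nrf1 with 1013 and 1053 and the coactivator gene Ppargc1a with 456 and 460 in the GR and control libraries. Of 17 genes of mitochondrial DNA copying and transcription 0 were called, with 11 of 16 well-read genes above 0 and a median log2 fold change of 0.06, or 0.02 with the GC trend removed. Tfam, which packs that DNA and takes part in starting its transcription, had 1674 reads in the GR library and 1602 in the control library. The DNA polymerase gene Polg had 1525 and 1604. Of 15 measured genes for processing mitochondrial RNA 0 were called, with a median of 0.02. Lrpprc, which stabilises mitochondrial messages, had 2478 and 2465 reads, and Fastk had 1303 and 1393.

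Assembly factors and subunits under other names showed 0 calls in 6 lists of 3 to 13 measured genes, with median log2 fold changes between -0.05 and 0.007. Cyc1, the cytochrome c1 of complex III, had 2713 reads with the GR vector and 2860 with the control vector (0.951, 0.902 to 1.00), and Atpif1, the inhibitor of ATP synthase, had 1341 and 1383. The most read assembly factors were Tmem186 and Timmdc1 for complex I, with 765 and 756 reads in the GR library and 770 and 741 in the control library. For complex II they were Sdhaf2 and Sdhaf4, with 551 and 207 reads in the GR library and 535 and 215 in the control library. Uqcc2 and Uqcc1 led for complex III, with 2014 and 956 reads with the GR vector and 1998 and 871 with the control vector. Coa3 and Coa5 led for complex IV, with 2048 and 1551 reads in the GR library and 2197 and 1455 in the control library. Atpaf2 and Tmem70 led for ATP synthase, with 744 and 681 reads in the GR library and 772 and 739 in the control library. None of these 10 differed by more than 1.2-fold. In the authors' deposited gene set report, the oxidative phosphorylation set of 132 genes had an enrichment score of 0.636 and a normalized score of 1.00, the 140th of 307 sets, with a nominal p of 0 and a false discovery rate q-value of 0.961. The nominal p of 0 and the q-value near 1 stand side by side in that report, and the permutation scheme is not given in the sources used here.

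Short strings known as binding motifs of respiratory gene regulators were counted in the promoters of nuclear members. Promoter windows of 300 bases around the start were found for 82 of the 102 nuclear members (RefSeq, GRCm38.p6) and searched on both strands. The core of the NRF1 motif, GCGCATGCG, occurred in 11 (13.4%), against 4.51% of the protein-coding genes at a mean of 50 or more reads and 1.95% of all genes with a promoter entry. The YY1 string AAGATGGC occurred in 12 (14.6%), against 5.55% and 3.19%. The ETS string CCGGAAGT occurred in 9 (11.0%), against 9.83% and 4.31%. At least 1 of the 3 strings occurred in 30 promoters and more than 1 of them in 2. Among the 11 with the NRF1 core were Cycs, Cox6a1, Uqcrc1 and Atp5l, and none of the 11 passed the library test. A match describes letters in a window and is no evidence of binding.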

How the data were processed

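Per the file headers and values, the authors deposited 1 normalized signal per gene and library, a scaled read count. Every value was a whole multiple of a step per library (100% within 0.01 reads), so reads were recovered. The same table holds the log2 fold change and the p-values the authors deposited. DESeq2 1.10.1 is named in the submitters' processing notes. Deposited p-values and fold changes differed by at most 4.45e-08 and 4.87e-08 from the exact test of edgeR 4.0.16 on those reads with a preset dispersion of 0.04. This count test calls 4 genes and 0 members. A gene set report the authors deposited gives enrichment scores with p-values and q-values. The build is not given in the sources used here, nor are aligner, counter and strand handling.

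The reads were scaled by TMM, and folds have exact Clopper-Pearson 95% intervals. The design file foresaw counts, and the test was run on the recovered reads. The script was tested on simulated data. Medians use a mean of at least 50 reads, the size rule of 1.2-fold a mean of at least 100. Of the gene identifiers, 21516 occur in GENCODE M21, with 97.0% at the same coordinates. Its transcripts gave GC content, 31-mers and lengths, with the shortest best-supported principal transcript for RPKM. GC and length trends were removed by lowess (fraction 0.3). Alternatives were other scalings, filters, thresholds and leaving out members with at least 25% of 31-mers shared.

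The members and lists were chosen with earlier results of these data known. Named are all members past the library test, the most read, highest and lowest of each class, isoform families, mitochondrial members, and, of each other list, the genes past the test and the 2 most read. A gene that this rule names is not reported here. Genes named beyond these were chosen after their values were seen. Python 3.11.15 and R 4.3.3 were used.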

Additional observations from a re-analysis of the deposited data

How the results depend on the processing

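Scaling by total reads or DESeq2 size factors, no filter on low counts and a mean of at least 500 reads left the nuclear median, the mitochondrial median and their difference on the same side of 0. Removing the GC trend reversed the mitochondrial median to -0.029 and the mitochondrial minus nuclear difference to -0.0059, and likewise the mitochondrial members of complex I to -0.030 and of complex III to -0.059 (log2). With that trend removed, higher calls fell to 3 of 8 and 7 of the 14 calls were kept. Lower calls were then 7 instead of 6, as 3 were added (mt-Nd2, mt-Cytb and Atp5b). Removing the length trend left 3 lower calls (Cox4i1, Cox8a and Atp5g1 lost theirs) and gave 10 higher ones (mt-Nd2 and mt-Cytb added), and an adjusted p under 0.01 left 2 lower calls. Leaving out members with at least 25% of 31-mers shared left 8 calls in all, 3 of them higher, and 2 members past 1.2-fold. The edgeR exact test with a preset dispersion left 0 calls, 0 higher and 0 lower. Over protein-coding reads, the mitochondrial share was 1.76% with the GR vector and 1.70% with the control vector, and the nuclear share 0.990% and 1.01%. DESeq2 was not run because it refuses 1 library per group. No paired analysis was possible because each group has 1 library. Depth limits the 8 members under a mean of 50 reads, among them mt-Atp8, Cox20, Cox7a1 and Ndufa4l2.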
